A study of Rattus norvegicus with 6 samples.

Results

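The genes described are 8 enzymes of the pentose phosphate pathway and of cytosolic NADPH supply. They are Pgls, Pgd, Rpia, Rpe, Tkt, Taldo1, Idh1 and H6pd, chosen by their symbols, with earlier results of these data known. Of these, 7 had a row among the 25926 features of the table, each a single row with an Ensembl identifier, and all 7 reached the mean of 1 FPKM over the 6 samples that was needed for testing. FPKM is a count of fragments divided by transcript length and by the library's mapped fragments. Pgd, the 6-phosphogluconate dehydrogenase, was not analysed here. RNA-seq was done on whole liver of 3 TPN rats, which received for 7 days total parenteral nutrition, that is, feeding by infusion into a vein alone, and carried the disease label PNALD, parenteral nutrition-associated liver disease. The controls were 3 rats that received 0.9% saline and were labelled normal. Both groups were of the Sprague-Dawley strain at a labelled age of 4 weeks. The labels do not say by which route the saline was given or what the controls ate, so feeding and infusion cannot be told apart.

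The pentose phosphate pathway takes glucose phosphate out of glycolysis. Its oxidative branch (among others Pgls and Pgd) makes NADPH, and its non-oxidative branch (Rpia, Rpe, Tkt, Taldo1) makes ribose phosphate for nucleotides or returns carbon to glycolysis. Idh1 makes NADPH from isocitrate in the cytosol and peroxisomes, and H6pd runs the first steps of the oxidative branch inside the endoplasmic reticulum. In liver the NADPH of the cytosol is used to make fatty acids and cholesterol, to keep glutathione reduced and to drive cytochrome P450 enzymes.

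The summed FPKM of a sample lay between 509630 and 544670, and the depth of the libraries is unknown. The liver label was met by hepatocyte genes in every sample, with lowest values of 12828 FPKM for Alb and 10915 FPKM for Tf, both in TPN rats. TPN 1 and control 2 stood apart from the other rats of their groups in acute-phase genes, of which 11 were measured. Their summed FPKM was 99501 in TPN 1 against 41185 and 35405 in TPN 2 and 3, and 49901 in control 2 against 17978 and 17783 in control 1 and 3. Erythroid genes were lower in TPN liver in 6 of 6 tested, where 49.1% of all features were negative. All 6 were lower without overlap and 4 passed the test described below, against 9.09% and 0.22% of all features in that direction. The summed FPKM of the 8 erythroid genes with a row was 231 to 579 in TPN rats and 2126 to 2421 in control rats.

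None of the 7 measured genes passed the test between TPN and control liver (limma on log2(FPKM + 1), adjusted over 11362 features at 0.05), and 1, Idh1, had an unadjusted p under 0.05, as did 11.4% of all features. In that fit 28 features passed, which is 0.246% of those tested, with 0.0264% higher and 0.22% lower in TPN. Idh1 was the single member whose groups did not overlap, with all 3 TPN rats below all 3 control rats, as was so for 9.09% of all features. On the log2 scale Tkt (-0.69) and Idh1 (-0.66) had the largest differences of the 7, and the other 5 lay between -0.18 and 0.12. The median log2 fold change of the 7 was -0.14 and that of all features tested 0.0065, and 4 of the 7 were negative, against 49.1% of all features. With 3 against 3 rats an exact permutation test cannot give a 2-sided p under 0.1.

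**Figure D1:**
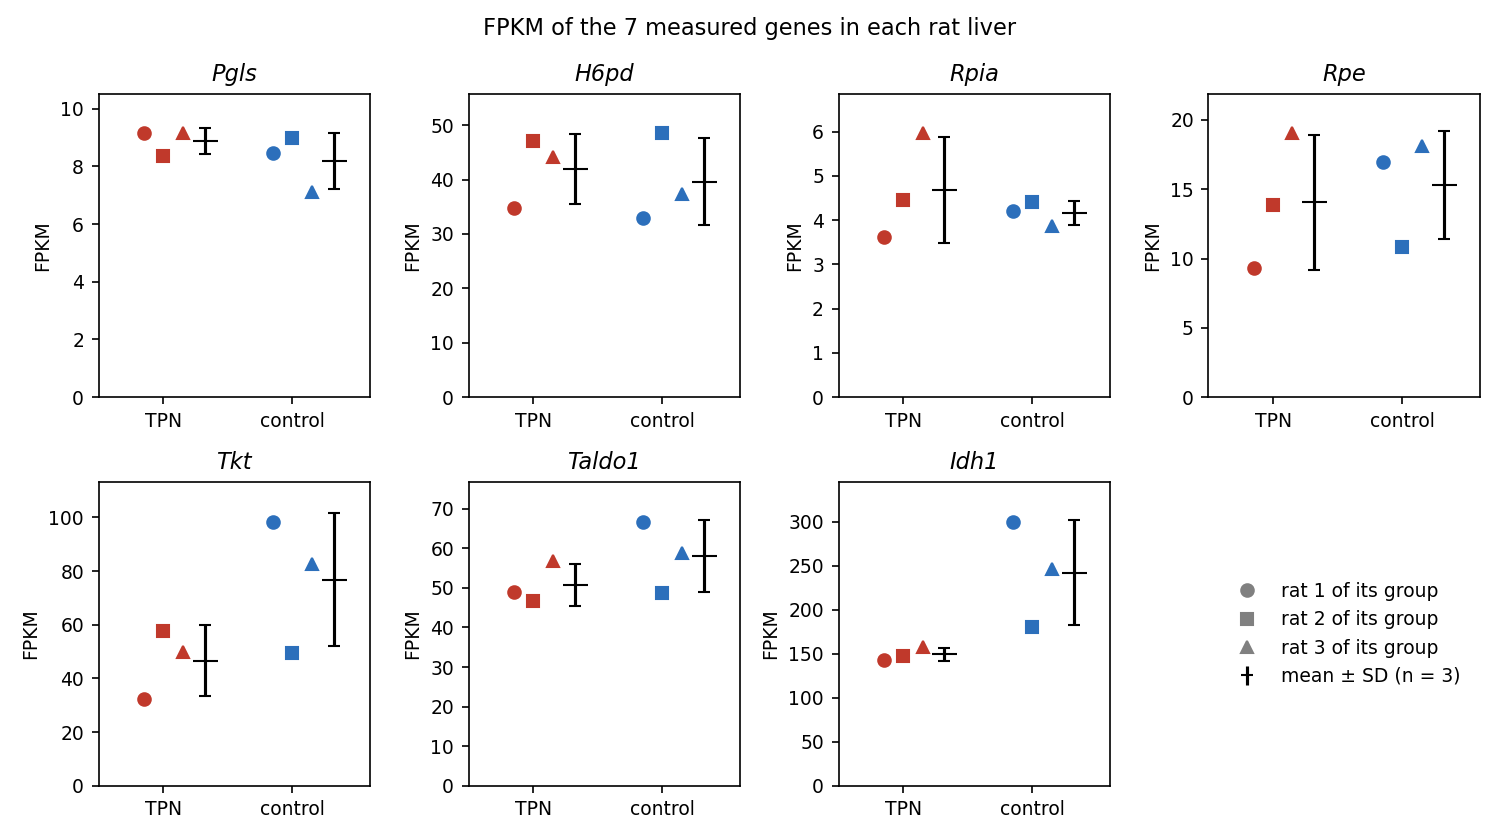
FPKM (y axis, from 0, with its own scale in each panel) of the 7 measured genes in TPN and control livers; each symbol is 1 rat and the black bar is the mean ± SD (n = 3). Only in the Idh1 panel do all TPN symbols, at 143 to 157 FPKM, lie under all control symbols.

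Idh1 (ENSRNOG00000015020), the cytosolic isocitrate dehydrogenase, measured 143, 148 and 157 FPKM in TPN 1, 2 and 3, against 300.1, 180.3 and 246 FPKM in control 1, 2 and 3. The TPN rats lay close together and the control rats were spread, with control 2 nearest to the TPN rats. The means were 149 ± 7.52 FPKM in TPN and 242 ± 59.99 FPKM in control (SD, n = 3 each). On the log2 scale the fold change was -0.66 with an SE of 0.23 and a 95% interval of -1.20 to -0.13, and the gene did not pass (limma adjusted p = 0.35, unadjusted p = 0.0211). Without control 1 the log2 fold change was -0.49 (limma unadjusted p = 0.0917, adjusted p = 0.946). The unadjusted p of limma was also above 0.05 without control 3 (0.0677) or without TPN 2 (0.0533), so it was lost in 3 of 6 fits that left out 1 rat. Without control 2 and TPN 1 together the log2 fold change was -0.83 (limma adjusted p = 0.119). These were the lowest rats of their groups in Idh1 and those with the most acute-phase RNA, whose part in the difference was not tested. Fewer cells of a type and less RNA per cell cannot be told apart in whole liver, and the part of the lower erythroid RNA in this difference was not tested.

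The promoter window of Idh1, 250 bases before to 50 after the start that RefSeq uses on GRCr8, is shown because this gene alone kept the groups apart, and the window of Tkt because it had the other large difference. Capitals mark matches, on either strand, to TGACNNNGC (the core of the antioxidant response element bound by NRF2) or to GGGCGG (the GC box).
Idh1 (chr9:74049425-74049724, minus strand): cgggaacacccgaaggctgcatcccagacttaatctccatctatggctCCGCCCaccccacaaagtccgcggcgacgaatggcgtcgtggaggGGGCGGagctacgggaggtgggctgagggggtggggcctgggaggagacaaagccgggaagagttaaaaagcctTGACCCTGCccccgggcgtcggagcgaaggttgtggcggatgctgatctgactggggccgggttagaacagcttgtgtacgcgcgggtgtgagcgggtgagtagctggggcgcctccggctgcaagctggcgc
Tkt (chr16:5729982-5730281, plus strand): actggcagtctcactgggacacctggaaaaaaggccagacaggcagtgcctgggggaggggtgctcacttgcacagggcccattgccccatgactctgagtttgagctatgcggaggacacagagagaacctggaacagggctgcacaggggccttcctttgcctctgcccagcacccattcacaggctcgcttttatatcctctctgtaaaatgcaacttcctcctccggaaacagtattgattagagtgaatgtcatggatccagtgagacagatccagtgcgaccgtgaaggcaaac

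In the Idh1 window TGACNNNGC matched once, from base -83, and GGGCGG matched at -157 on the shown strand and at -202 on the other, where -1 is the last base before the start. No match overlapped another. The Tkt window held none of the letters searched. Of the 8 genes 7 had a window in the table, and in these TGACNNNGC was found in 1, GGGCGG in 5, and neither CACGTG (the E-box) nor TCACNCCAC (a core of the sterol regulatory element) in any. Over all 33469 promoter windows of the same length, TGACNNNGC was found in 12.1%, GGGCGG in 33.1%, CACGTG in 6.42% and TCACNCCAC in 1.12%. A match is a description of letters and shows no binding.

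In the non-oxidative branch, Tkt (ENSRNOG00000016064), the thiamine-dependent transketolase, measured 32.2, 57.8 and 49.9 FPKM in TPN 1, 2 and 3, against 98.4, 49.6 and 82.5 FPKM in control 1, 2 and 3. Control 2 lay within the range of the TPN rats, so the groups overlapped. The means were 46.6 ± 13.1 FPKM in TPN and 76.8 ± 24.9 FPKM in control (SD, n = 3 each). On the log2 scale the fold change was -0.69 with an SE of 0.31 and a 95% interval of -1.42 to 0.03 (limma adjusted p = 0.456). The lowest rats of the groups, TPN 1 and control 2, were the rats with the most acute-phase RNA, whose part in the difference was not tested. Without both of them it was -0.74 (limma adjusted p = 0.155), without TPN 1 alone -0.45, and without control 2 alone -0.98.

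Taldo1 (ENSRNOG00000018367), the transaldolase that works beside Tkt, measured 48.98, 46.7 and 56.8 FPKM in TPN 1, 2 and 3, against 66.8, 48.6 and 58.9 FPKM in control 1, 2 and 3. The groups overlapped, at means of 50.8 ± 5.3 FPKM in TPN and 58.1 ± 9.1 FPKM in control (SD, n = 3 each). The log2 fold change was -0.18 with a 95% interval of -0.62 to 0.25 (limma adjusted p = 0.768). Within each rat the ratio of Tkt to Taldo1 FPKM was 0.657, 1.24 and 0.879 in TPN 1, 2 and 3, against 1.47, 1.02 and 1.401 in control 1, 2 and 3. TPN 2 lay above control 2, so the ratio did not separate the groups, and it was not tested.

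Rpe (ENSRNOG00000038085), which turns ribulose phosphate into xylulose phosphate, measured 9.31, 13.8 and 19.1 FPKM in TPN 1, 2 and 3, against 16.98, 10.8 and 18.1 FPKM in control 1, 2 and 3. The TPN rats spanned the whole range of the controls, and the log2 fold change was -0.14 (95% interval -0.80 to 0.53, limma adjusted p = 0.905). Rpia (ENSRNOG00000005576), which makes ribose phosphate from the same substrate, measured 3.61, 4.46 and 5.97 FPKM in TPN 1, 2 and 3, against 4.21, 4.401 and 3.88 FPKM in control 1, 2 and 3. TPN 1 was below and TPN 2 and 3 above all controls, with a log2 fold change of 0.12 (95% interval -0.30 to 0.53, limma adjusted p = 0.859). For Rpe, TPN 1 was again the lowest TPN rat and control 2 the lowest control rat. The sign turned for Rpe without TPN 1 (0.11) and for Rpia without TPN 3 (-0.0399).

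In the oxidative branch, Pgls (ENSRNOG00000018326), the lactonase of phosphogluconolactone, measured 9.15, 8.37 and 9.15 FPKM in TPN 1, 2 and 3, against 8.48, 8.97 and 7.097 FPKM in control 1, 2 and 3. TPN 1 and 3 were above all controls and TPN 2 was below control 1 and 2. Its log2 fold change was 0.11 with a 95% interval of -0.23 to 0.45 (limma adjusted p = 0.831).

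H6pd (ENSRNOG00000017523), the hexose phosphate dehydrogenase of the endoplasmic reticulum, measured 34.7, 47.1 and 44.2 FPKM in TPN 1, 2 and 3, against 32.97, 48.5 and 37.3 FPKM in control 1, 2 and 3. All TPN rats lay within the control range, and the log2 fold change was 0.09 (95% interval -0.39 to 0.57, limma adjusted p = 0.92), with a turned sign of -0.0304 without control 1. Hsd11b1, which uses the NADPH that H6pd makes to reactivate glucocorticoid, measured 317, 427 and 462 FPKM in TPN 1, 2 and 3, against 222, 289 and 295 FPKM in control 1, 2 and 3. The groups of Hsd11b1 did not overlap, as was so for 8.02% of features in that direction, and it did not pass (log2 fold change 0.57, limma adjusted p = 0.417). Slc37a4, which carries glucose phosphate into the same compartment, ranged from 22.6 to 108 FPKM in TPN rats and from 54.99 to 80.95 FPKM in control rats and did not pass (limma adjusted p = 0.784).

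**Figure D2:**
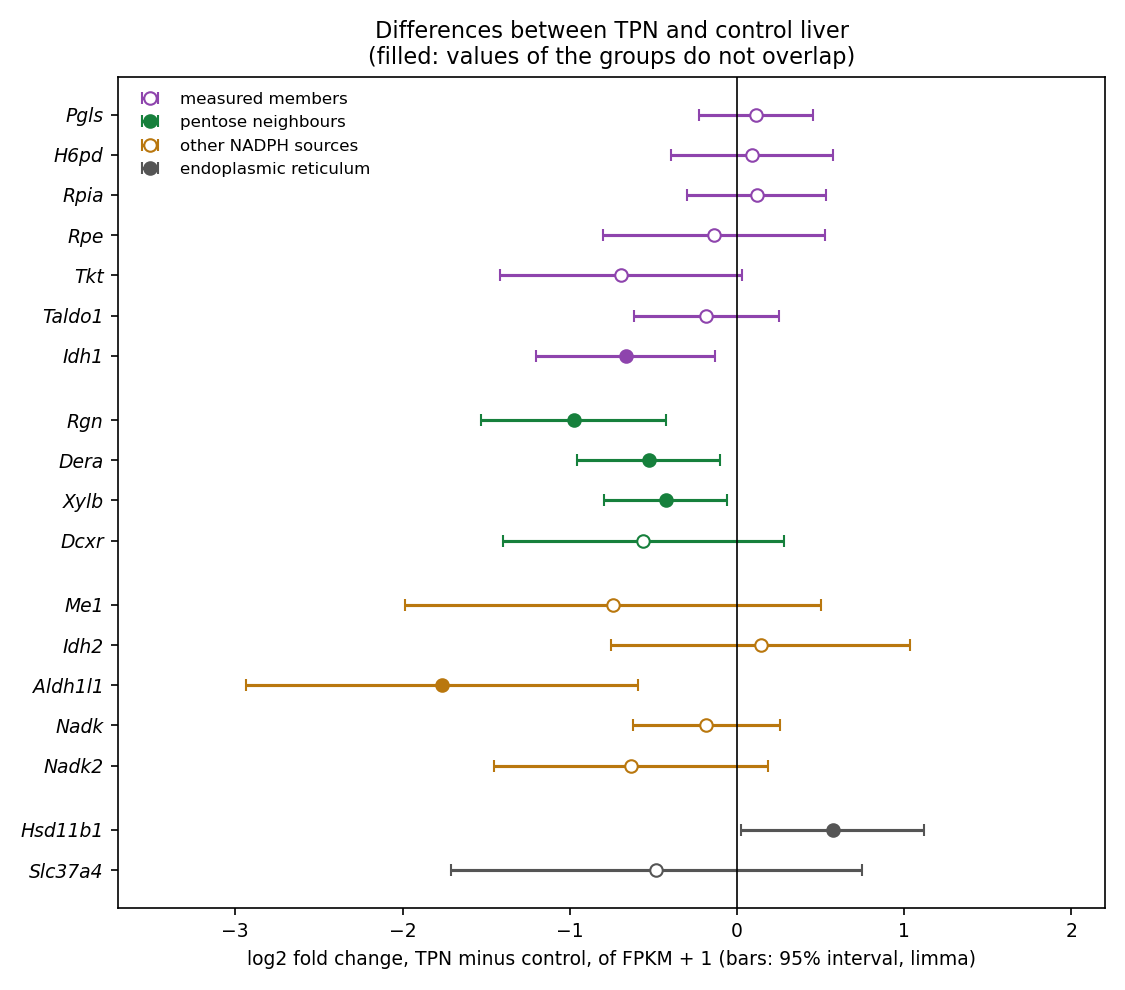
Log2 fold change of FPKM + 1, TPN minus control (x axis), for the 7 measured members, 4 pentose neighbours, 5 other NADPH sources and 2 genes of the endoplasmic reticulum; bars are 95% intervals of the limma fit and filled points mark genes whose groups do not overlap. Among the members Idh1, at -0.66, is the single filled point, and the interval of Tkt reaches 0.03.

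Per unit of length, Idh1 was the most abundant of the 7 in every rat. It held 47.4 ± 3.02% of their summed FPKM in TPN and 54.1 ± 2.76% in control (SD, n = 3 each). The 3 TPN shares were below the 3 control shares, by little at 50.8% in TPN 1 against 51.3% in control 2. For Taldo1, Pgls and Rpia all TPN shares were above all control shares. Shares of 1 sum are tied to one another, so these are not separate results. In TPN liver Idh1 was followed by Taldo1, Tkt and H6pd, at means of 50.8, 46.6 and 41.996 FPKM. Rpe, Pgls and Rpia came next, at 14.1, 8.89 and 4.68 FPKM. In control liver Tkt stood above Taldo1 and H6pd, at 76.8, 58.1 and 39.6 FPKM. Taldo1, Tkt and H6pd overlapped one another across TPN rats. Across control rats Tkt and Taldo1 overlapped, and the highest H6pd value, 48.5 FPKM, lay just under the lowest of Taldo1 and Tkt, 48.6 and 49.6 FPKM. Rpe, Pgls and Rpia did not overlap one another in either group. The summed FPKM of the 7 was 281, 326 and 343 in TPN 1, 2 and 3, against 528, 351 and 454 in control 1, 2 and 3, a difference made mostly by Idh1 and Tkt.

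**Figure D3:**
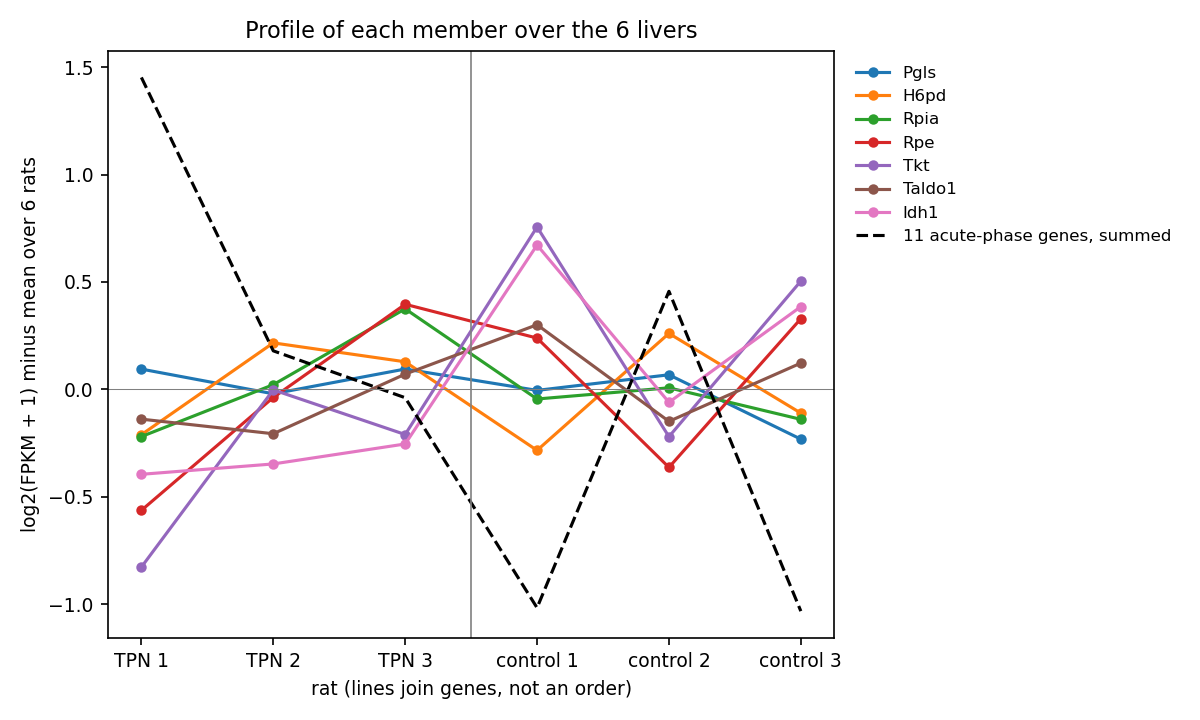
Log2(FPKM + 1) of each measured member minus its mean over the 6 rats (y axis) in each liver (x axis), with the summed FPKM of 11 acute-phase genes as a dashed line; the joining lines imply no order. Idh1, Tkt and Rpe are lowest in their group in TPN 1 and control 2, where the dashed line is highest in its group.

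The 3 features most like Idh1 in their profile over the 6 rats, among 6371 with a symbol and a mean of at least 5 FPKM, were Bst2, Rmdn2 and Gpx1. Likeness is the root mean square difference of standardised log2(FPKM + 1), which was 0.0983 for Bst2, 0.103 for Rmdn2 and 0.113 for Gpx1. Gpx1, a glutathione peroxidase, measured 219, 225 and 264 FPKM in TPN 1, 2 and 3, against 905, 399 and 654 FPKM in control 1, 2 and 3. Bst2, an antiviral membrane protein, measured 123, 132 and 139 FPKM in TPN 1, 2 and 3, against 251, 165 and 206 FPKM in control 1, 2 and 3. In both the order of the 6 rats was that of Idh1, which their choice by likeness over the same rats favours. Neither passed (limma adjusted p = 0.172 for Gpx1 and 0.331 for Bst2).

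The 11 measured neighbours of the pentose phosphate pathway were sugar kinases, phosphoribosyl enzymes, a lactonase, an aldolase, a reductase and a mutase. None passed limma's test (3 had an unadjusted p under 0.05), and their median log2 fold change was -0.18. Of the 11, 8 were negative and 3 were lower in TPN without overlap. These 3 were Rgn, Dera and Xylb. Over all features 11.4% had an unadjusted limma p under 0.05, 49.1% were negative and 9.09% were lower without overlap. Rgn, the gluconolactonase of vitamin C synthesis in rodents, measured 230, 315 and 245 FPKM in TPN 1, 2 and 3, against 501, 430 and 632 FPKM in control 1, 2 and 3 (log2 fold change -0.98, limma adjusted p = 0.199). Dera, the deoxyribose phosphate aldolase, averaged 18.2 ± 2.78 FPKM in TPN and 26.7 ± 3.71 FPKM in control (limma adjusted p = 0.352). Xylb, the xylulose kinase, averaged 32.9 ± 2.89 FPKM in TPN and 44.5 ± 2.48 FPKM in control (limma adjusted p = 0.378, SD, n = 3). The xylulose reductase Dcxr overlapped, at 66.1 ± 33.2 FPKM in TPN and 91.8 ± 20.4 FPKM in control (limma adjusted p = 0.61).

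Of 9 measured genes of other NADPH routes and of NAD phosphorylation, none passed limma's test (1 had an unadjusted p under 0.05). The median was -0.18, 7 were negative and 1 was lower without overlap, against 9.09% of all features. That gene, Aldh1l1, the cytosolic formyltetrahydrofolate dehydrogenase that yields NADPH, measured 8.13, 24.9 and 36.05 FPKM in TPN 1, 2 and 3, against 83.6, 56.6 and 69.6 FPKM in control 1, 2 and 3. TPN 1 was the lowest, and the log2 fold change was -1.76 with an SE of 0.50 (limma adjusted p = 0.27). Me1, the cytosolic malic enzyme, measured 11.2, 29.4 and 28.8 FPKM in TPN 1, 2 and 3, against 50.3, 17.8 and 52.5 FPKM in control 1, 2 and 3, so that, as in Tkt, TPN 1 and control 2 were lowest in their groups and control 2 lay among the TPN rats (log2 fold change -0.74, 95% interval -1.99 to 0.50, limma adjusted p = 0.642). Leaving out 1 rat moved Me1 between -1.24 without control 2 (limma unadjusted p = 0.0213, adjusted p = 0.286) and -0.31 without TPN 1 (limma adjusted p = 0.827). Idh2, the mitochondrial counterpart of Idh1, measured 24.8, 36.8 and 71.5 FPKM in TPN 1, 2 and 3, against 42.8, 26.9 and 41.9 FPKM in control 1, 2 and 3. Its groups overlapped (log2 fold change 0.14, 95% interval -0.75 to 1.04, limma adjusted p = 0.93). The NAD kinases did not pass either, with limma adjusted p of 0.768 for Nadk and 0.545 for the mitochondrial Nadk2.

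Upstream, none of 15 measured genes of glucose phosphate supply passed limma's test (2 had an unadjusted p under 0.05). The median was -0.14, 10 were negative and 1, Gckr, was lower without overlap, against 9.09% of all features. Gckr averaged 46.1 ± 16.4 FPKM in TPN and 88.2 ± 14.5 FPKM in control (SD, n = 3 each; limma adjusted p = 0.241). The hexokinase Hk3, at 3.41 ± 0.794 FPKM in TPN and 2.104 ± 0.394 FPKM in control, did not pass (limma adjusted p = 0.378). G6pc, which releases free glucose, averaged 168 ± 47.8 FPKM in TPN liver against 116 ± 26.2 FPKM in control liver (limma adjusted p = 0.5), and the glucose carrier Slc2a2 74.9 ± 52.5 FPKM in TPN liver against 119.5 ± 38.3 FPKM in control liver (limma adjusted p = 0.671).

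Among 26 measured users of NADPH, 2 passed, against 0.246% of all features. They were the sterol reductases Tm7sf2 and Dhcr7, and both fell. Lower values without overlap were found in 8, against 9.09% of all features, and higher ones in 2, against 8.02%. The median was -0.24. Tm7sf2 measured 4.09, 8.13 and 2.74 FPKM in TPN 1, 2 and 3, against 60.2, 53.2 and 49.1 FPKM in control 1, 2 and 3 (limma adjusted p = 0.0166). Dhcr7, with the same adjusted p, averaged 12.1 ± 2.26 FPKM in TPN and 52.6 ± 7.32 FPKM in control (SD, n = 3 each). The call of Tm7sf2 was lost without TPN 3 or control 1 (limma adjusted p = 0.105 and 0.0595) and that of Dhcr7 without TPN 2, TPN 3 or control 3 (0.076, 0.105 and 0.0516). No feature at all passed after median-ratio scaling, after quantile normalisation or without the filter on low values, where these 2 genes had limma adjusted p from 0.0527 to 0.113. Tecr, the last reductase of fatty acid elongation, averaged 67.1 ± 7.3 FPKM in TPN and 126.7 ± 15.98 FPKM in control, and the steroid reductase Srd5a1 averaged 56.3 ± 28.7 FPKM in TPN and 195.7 ± 39.4 FPKM in control (SD, n = 3 each), without overlap and without passing (limma adjusted p = 0.147 and 0.18).

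The members were also set beside genes under transcription factors known, mostly from mouse and human cells, to act on several of these enzymes. Like the other lists, these were chosen with earlier results of these data known. Of 25 measured sterol genes under SREBP2 all were negative, 4 passed and 23 were lower without overlap (median -1.35). Over all features 49.1% were negative, 0.246% passed and 9.09% were lower without overlap. The 4 sterol genes that passed were Tm7sf2 and Dhcr7, described above, and Mvd and Msmo1 (limma adjusted p = 0.0391 and 0.0422). The call of Mvd was lost in 10 of 18 alternatives (limma adjusted p up to 0.134), among them those without TPN 1, TPN 2, TPN 3, control 1 or control 3. That of Msmo1 was lost in 13 of 18 (up to 0.171), among them those without TPN 1, TPN 2, TPN 3 or control 3. Of 17 lipogenic genes under SREBP1 and ChREBP, 15 were negative, none passed limma's test (11 had an unadjusted p under 0.05) and 10 were lower without overlap (median -1.05). Its 4 with the smallest p were Acacb, Acss2, Fads2 and Fads1 (limma adjusted p from 0.0882 to 0.194). Of 18 NRF2 genes, 15 were negative and none passed limma's test (5 had an unadjusted p under 0.05). Without overlap 3 were lower and 1 was higher (median -0.34), against 9.09% and 8.02% of all features. Nqo1, the quinone reductase, was the higher one, at 33.9, 48.2 and 47.1 FPKM in TPN 1, 2 and 3, against 10.6, 17.6 and 28.02 FPKM in control 1, 2 and 3 (log2 fold change 1.24, limma adjusted p = 0.231). The lower ones included the exporter Abcc3 (1.03 ± 0.402 FPKM in TPN and 3.304 ± 0.384 FPKM in control) and Osgin1 (44.5 ± 10.6 FPKM in TPN and 113 ± 59.8 FPKM in control), while the glutathione transferase Gsta3 overlapped (14.8 ± 17.1 FPKM in TPN and 49.2 ± 21.8 FPKM in control).

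**Figure D4:**
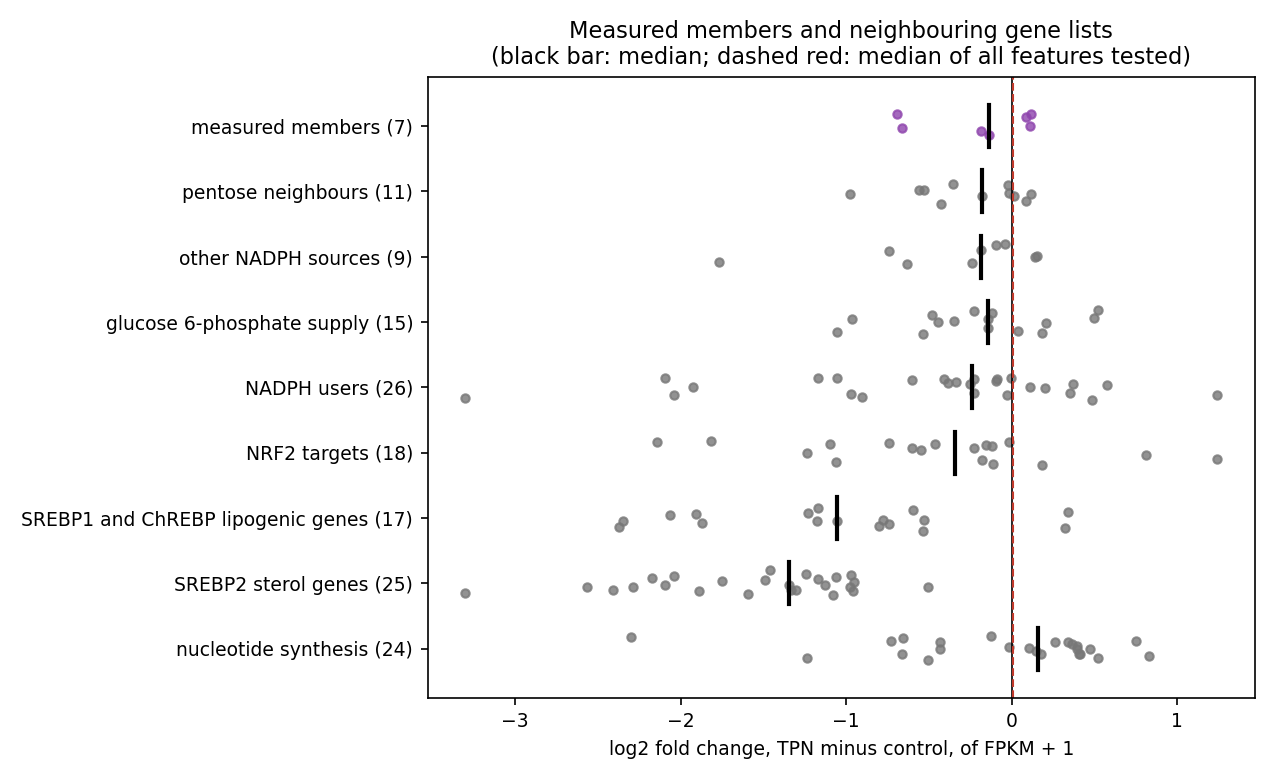
Log2 fold change of FPKM + 1, TPN minus control (x axis), of the 7 measured members and of the genes of 8 neighbouring lists (number measured in brackets); each point is a gene, the black bar the median of the list and the dashed line the median of all features tested. The members have a median of -0.14, and the 25 sterol genes lie wholly below 0.

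Ribose phosphate from the non-oxidative branch feeds nucleotide synthesis, where 24 genes were measured. Of these, 14 were positive and 10 negative (median 0.16). In 6 all TPN rats lay above and in 7 below all control rats, against 8.02% and 9.09% of all features. Of the 24 genes 1 passed, against 0.246% of all features. It was Rrm2, a ribonucleotide reductase subunit, which fell to 0.199 ± 0.062 FPKM in TPN, against 5.08 ± 1.64 FPKM in control (SD, n = 3 each; limma adjusted p = 0.0166), a call lost without TPN 2, TPN 3 or control 1 (limma adjusted p = 0.0768, 0.105 and 0.0595). The lower ones also included Tk1 and Rrm2b of deoxynucleotide supply (limma adjusted p = 0.137 and 0.206), and the higher ones Ctps1, the cytidine triphosphate synthetase, at 5.32, 5.19 and 8.096 FPKM in TPN 1, 2 and 3, against 2.76, 2.81 and 3.402 FPKM in control 1, 2 and 3 (limma adjusted p = 0.172). Cell cycle genes were lower beside them, with 7 of 7 tested negative and 3 past the test, against 49.1% and 0.246% of all features. Over the 11 cell cycle genes with a row the summed FPKM was 3.09 to 8.94 in TPN rats and 19.8 to 30.4 in control rats. The part of cell cycle genes in the values of the nucleotide genes was not tested.

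Markers of other cells that hold these enzymes moved as follows. Kupffer and macrophage genes were positive in 7 of 8, where 49.1% of all features were negative, and none passed limma's test. Of the 8, 3 had an unadjusted limma p under 0.05 and 3 were higher without overlap, against 11.4% and 8.02% of all features. Their summed FPKM was 413 to 681 in TPN rats and 315 to 480 in control rats. Neutrophil genes summed to 14.8 to 42.7 FPKM in TPN rats and 6.84 to 26.7 in control rats over 10 genes. Hepatocyte genes summed to 40289 to 67860 FPKM in TPN rats and 60545 to 81644 in control rats over 10 genes. Their lowest sum was in TPN 1, and 5 of the 10 were positive and 5 negative (median log2 fold change -0.02). Stellate cell genes summed to 93.2 to 124 FPKM in TPN rats and 125 to 205 in control rats over 10 genes. Cholangiocyte genes summed to 11.3 to 15.1 in TPN rats and 15.4 to 23.7 in control rats over 8 genes. Lower values without overlap were seen in 3 of 9 stellate and 2 of 3 cholangiocyte genes tested, against 9.09% of all features, and none passed limma's test. The sums of endothelial genes (87.4 to 109 FPKM in TPN rats and 74.5 to 119 in control rats), T and NK cell genes (18.4 to 23.0 and 16.3 to 27.3) and B cell genes (10.6 to 11.8 and 6.25 to 29.96) overlapped. Overlap was also seen in the sums of Kupffer and macrophage, neutrophil and hepatocyte genes. Only 2 neutrophil, 3 cholangiocyte, 2 T and NK cell and 2 B cell genes reached the mean of 1 FPKM needed for testing. No list had a member at 0 in all 6 rats, and the part of these cells in the members' values was not tested.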

How the data were processed

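Sample titles gave the groups, 3 TPN and 3 control livers. Total RNA was isolated with TRIzol and made into Illumina libraries, per the labels' protocols. Bowtie 0.12.2, Cufflinks and the build Rnor_6.0 are named, per the submitters' processing notes. Their roles, the annotation, strandedness and handling of shared reads are likewise not given in the sources used here. FPKM per gene, with no counts, is what the authors deposited. Ratios of values under 0.3 FPKM between samples put at most 0.853% in 1 bin of 0.01 (log2), so whole reads could not be recovered.

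Features averaging 1 FPKM or more in the 6 samples, in every setting as deposited, were tested on log2(FPKM + 1) with limma 3.58.1 (R 4.3.3, statmod 1.5.0). Settings were trend and robust moderation, group as the only term, 2-sided, and Benjamini-Hochberg at 0.05. The fit was also run on values simulated from limma's own model, which cannot show how the test does on real FPKM. Changes of low genes are understated on this scale. Replicates are separate rats per the labels. Members and lists (8 pathway, 11 marker) were chosen with earlier results of these data known. Symbols matched 153 of 157 pathway and 101 of 110 marker entries. Named genes were the members, 4 fixed genes (some genes are not reported here and were left out of the lists), the 4 smallest p of each pathway list, and the 3 features most like a member without overlap. Alternatives were other pseudocounts, filters, scalings and moderation, sample weights, a replicate block, and rats left out. Promoters are RefSeq's, on GRCr8, not the build of the values. Figures used matplotlib 3.10.9.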

Additional observations from a re-analysis of the deposited data

How the results depend on the processing

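No member passed under any of the 18 alternatives run. Idh1 stayed negative in all 18 (-0.86 to -0.49, limma adjusted p 0.0676 to 0.946), as did Tkt (-0.98 to -0.45) and Taldo1. Leaving out 1 rat gave -0.0399 to 0.26 for Rpia, -0.37 to 0.11 for Rpe, -0.0304 to 0.24 for H6pd, -0.26 to 0.48 for Idh2 and -1.04 to 0.0587 for Slc37a4, on the log2 scale. The median of the members was -0.30 to 0.09, positive without TPN 1. Sample weights turned Idh2 to -0.0702. Of 33 other genes named, 4 of 588 values turned sign, 40 lost a call and 13 gained one. The losses were in all 5 genes called (Dhcr7 6, Tm7sf2 5, Mvd 10, Msmo1 13, Rrm2 6). The gains were with sample weights for Aldh1l1 (limma adjusted p = 0.0453), Tecr (0.0326), Srd5a1 (0.041), Abcc3 (0.0151), Acacb (0.0333), Acss2 (0.0227) and Tk1 (0.0214), without control 2 and TPN 1 together for Acacb, Acss2, Fads2 and Fads1 (0.0287 to 0.0421), and for Acss2 also with the replicate block (0.0401) and without TPN 1 (0.031). The cause was not tested.

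The count of 28 features past the test was 18 and 5 with pseudocounts of 0.1 and 0.01, 0 without a filter (1898 at an unadjusted p under 0.05), 6 with a mean of at least 5 FPKM, 0 after median-ratio scaling (1579 at an unadjusted p under 0.05) or quantile normalisation (1592), 8 with plain moderation, 299 with sample weights, and 122 when control 2 and TPN 1 were both dropped. With 1 rat dropped it was 0 (TPN 3 dropped, where 1386 had an unadjusted p under 0.05) to 46 (control 2 dropped). With the replicate number as a block it was 58, and Idh1 had a limma adjusted p of 0.417. Same-numbered rats deviated together in 1 of 3 pairs (correlations -0.21, -0.14 and 0.32), and 1 of 3 TPN rats matched its own number best. With 3 rats per group these values cannot decide whether the numbers pair the rats. The depth is unknown, and 3 rats per group limit the precision.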
